A study of Mus musculus with 13 samples.

Results

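The genes described here encode the machinery of oxidative phosphorylation. They are 56 genes of the 57010 in the deposited tables, chosen by symbol and matched to gene identifiers by the GRCm39 annotation: the 13 protein-coding genes of the mitochondrial DNA and 43 nuclear genes for subunits of complexes I to IV and for cytochrome c. RNA was sequenced from primary wild-type (WT) mouse embryonic fibroblasts (MEFs) in 4 groups, each with cells of mice 4, 5 and 6. Control MEFs were untreated, senescent MEFs (SnCs) had received 2 μM etoposide for 24 h and then spent 5 days without it in normal medium, and the other 2 groups were SnCs given Fucoidan-FV, the fucoidan of the brown seaweed Fucus vesiculosus, at 100 or 300 μg/mL for 12 h. All 3 SnC groups therefore carried the etoposide treatment, which blocks topoisomerase II and breaks DNA. Control mouse 5 was sequenced as libraries 5(1) and 5(2), which gives 13 libraries, and the pair was summed for every test.

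Oxidative phosphorylation passes electrons from NADH and succinate along complexes I to IV of the inner mitochondrial membrane, pumps protons as it does so, and uses the proton gradient to make ATP in complex V. Its subunits come from both genomes. The mitochondrial genes are transcribed together from both strands of a small circular DNA and cut into separate RNAs, whereas each nuclear gene has its own promoter, and copies of mitochondrial DNA also lie in the nuclear chromosomes.

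All 56 genes passed the filter on low counts, which kept 15034 genes. The library totals ran from 22782536 to 31278750 counts. The 10 fibroblast markers examined were all detected, with Fn1 and Vim among the most abundant, while summed macrophage markers reached at most 17.5 CPM (counts scaled to the library total), 7 of 10 skeletal muscle markers stayed under 1 CPM in every library and Myf5 was at 0. The summed muscle markers, carried by Des and Acta1, reached 103 to 269 CPM in controls, 149 to 360 in SnCs, 94.3 to 148 at 100 μg/mL and 68.0 to 120.5 at 300 μg/mL, and their part in the results was not tested. In a bulk culture, fewer cells of a type and less RNA per cell cannot be told apart. Levels below are CPM scaled by edgeR's TMM factors, unless stated, and fold changes are log2 values from edgeR.

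Sequence that mitochondrial and nuclear DNA share bears on the values of 7 mitochondrial genes, so it is shown first. These 7 of the 13 have a copy in a block of pseudogenes on the minus strand of chromosome 1, between bases 24650616 and 24655278 of GRCm39. The copies of mt-Nd4, mt-Nd4l, mt-Co2, mt-Co3 and mt-Atp6 were identical to the mitochondrial gene over all aligned bases, which numbered 876, 294, 681, 783 and 678. The copy of mt-Nd3, Gm28438, differed by 1 of 345 bases, T3C, and the copy of mt-Co1, Gm29216, by 6 of 492 bases, of which the last was A1066T. Positions are counted from 1 at the start of the mitochondrial transcript, with the mitochondrial base first. The windows below hold the places where gene and copy part, and capitals mark the bases that differ, or, in mt-Nd4, the bases past the end of its copy Gm28439.
mt-Nd3, chrM:9459-9520, plus strand: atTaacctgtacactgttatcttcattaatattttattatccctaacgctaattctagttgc
Gm28438, chr1:24652139-24652200, minus strand: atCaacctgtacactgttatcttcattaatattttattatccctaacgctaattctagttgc
mt-Co1, chrM:6381-6442, plus strand: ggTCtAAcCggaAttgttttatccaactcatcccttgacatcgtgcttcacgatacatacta
Gm29216, chr1:24655217-24655278, minus strand: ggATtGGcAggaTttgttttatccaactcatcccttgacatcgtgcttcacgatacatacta
mt-Nd4, chrM:10983-11102, plus strand: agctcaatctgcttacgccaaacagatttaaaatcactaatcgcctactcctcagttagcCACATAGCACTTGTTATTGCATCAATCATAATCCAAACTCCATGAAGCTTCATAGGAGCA

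The mitochondrial genes were grouped by how many of their 50-base words occur in no other gene of the annotation. In 6 genes nearly the whole sequence was their own: mt-Nd1, mt-Nd6, mt-Cytb and mt-Atp8 (100%), mt-Nd5 (92.4%) and mt-Nd2 (91.8%). In mt-Co1 and mt-Nd4, 48.9% and 37.8% of the words were their own. In mt-Nd3, mt-Nd4l, mt-Atp6, mt-Co3 and mt-Co2, this share was at most 2.01%. The deposited counts follow that division. RSEM, which shares out reads that fit several transcripts, had given mt-Co3 between 49.8% and 50.2% of the counts of itself and its copy Gm28437 in the 13 libraries, and mt-Co2 between 49.6% and 50.2%. For mt-Co1 the share was 54.6% to 73.4%. The deposited values of the shared genes are thus close to an even split of a pair, and the level of the mitochondrial RNA alone is uncertain for these 7 genes.

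The 13 mitochondrial genes together varied little between libraries. They held 0.835% of the counts in control mouse 4, 0.697% and 0.924% in control libraries 5(1) and 5(2), and 0.847% in control mouse 6. The SnCs of mice 4, 5 and 6 held 0.891%, 0.915% and 0.858%, those given 100 μg/mL held 0.951%, 1.00% and 0.958%, and those given 300 μg/mL held 0.770%, 0.855% and 0.944%. By mouse, the group means were 0.827% ± 0.0253 in controls, 0.888% ± 0.0285 in SnCs, 0.971% ± 0.0284 at 100 μg/mL and 0.856% ± 0.0868 at 300 μg/mL (SD, n = 3). The 3 mice at 100 μg/mL lay above the SnCs, and the 3 SnC mice above the controls, while the mice at 300 μg/mL ranged from below all controls to above all SnCs, and stayed below the mice at 100 μg/mL. Taken alone, control library 5(2) lay above all SnC libraries. The sums leave out the chromosome 1 copies, which held a further share of the counts. That share was 0.540% to 0.770% in control mice, 0.641% to 0.808% in SnC mice, 0.540% to 0.775% under the lower dose and 0.555% to 0.701% under the higher. These ranges overlap, so the order of the groups holds for the deposited split of shared reads only. The sums are a description and carry no test.

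Fewer counts fell to the 43 nuclear genes. Their share of the counts was 0.244%, 0.212%, 0.262% and 0.186% in the control libraries 4, 5(1), 5(2) and 6. It was 0.213%, 0.198% and 0.357% in the SnCs of mice 4, 5 and 6, so the library of senescent mouse 6 stood far above its group. At 100 μg/mL it was 0.215%, 0.216% and 0.183%, and at 300 μg/mL 0.183%, 0.188% and 0.200%. The log2 ratio of the mitochondrial to the nuclear sum was 1.91 ± 0.24 in controls, 1.85 ± 0.51 in SnCs, 2.25 ± 0.13 at 100 μg/mL and 2.17 ± 0.09 at 300 μg/mL (SD, n = 3). Within the SnCs it was 2.06 and 2.21 in mice 4 and 5 and 1.27 in mouse 6, which sets most of the spread of that group.

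**Figure D1:**
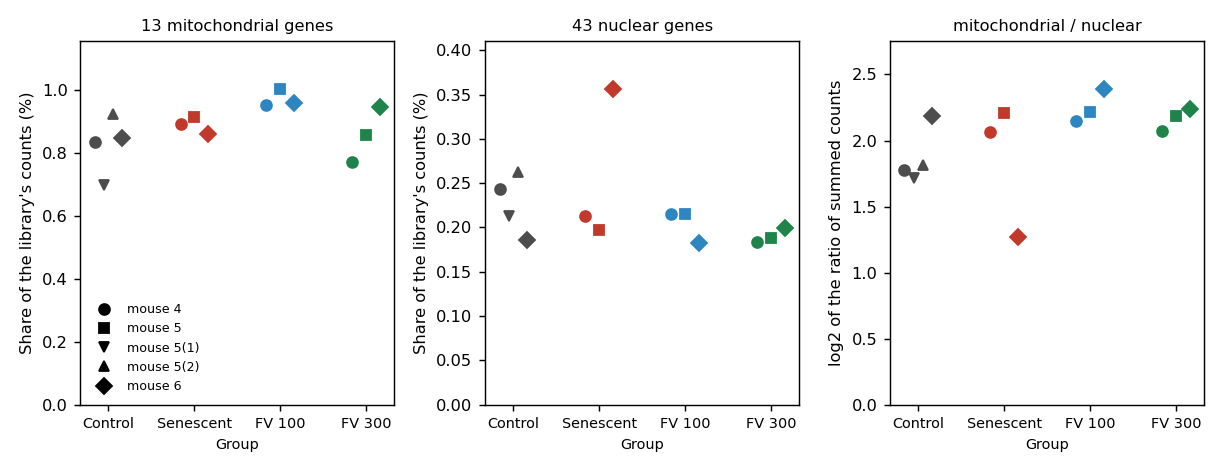
Share of each library's counts (%) held by the 13 mitochondrial genes and by the 43 nuclear genes, and the log2 ratio of the 2 sums, by group on the x axis, with 1 point per library and the marker giving the mouse. The library of senescent mouse 6 has the highest nuclear share, 0.357%, and the lowest log2 ratio, 1.27.

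By transcript length, in the deposited TPM (transcript counts per length), the 8 highest of the 56 genes were all mitochondrial. The cytochrome c oxidase gene mt-Co2 had a median TPM of 5162 over the 13 libraries, followed by the ATP synthase gene mt-Atp6 (4674) and the oxidase gene mt-Co3 (4422). Cox4i1, which encodes a regulatory subunit of the oxidase, was the highest nuclear gene at a median TPM of 765, and Ndufb3, an accessory subunit of complex I, the lowest of all at 16.4. The TPM ranges of mt-Co2 (3965 to 7155) and mt-Atp6 (3679 to 6580) overlapped, and so did those of mt-Co3 (3906 to 5751), so the order of these 3 is within their spread. The short mt-Atp8 had a median TPM of 751 on only 5 to 71 counts per library, the fewest of any of the 56.

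The 6 mitochondrial genes with their own sequence differed strongly between libraries of the same group. mt-Nd5, a core proton-pumping subunit of complex I, was at 461 CPM in control mouse 4, 121 in library 5(1), 607 in library 5(2) and 136 in control mouse 6. The SnCs of mice 4, 5 and 6 had 407, 187 and 102 CPM. The cells given 100 μg/mL had 595, 647 and 315 CPM, and those given 300 μg/mL had 141, 458 and 375. The groups overlapped, and 2 libraries of 1 control mouse lay 5.01-fold apart. mt-Cytb, the mitochondrial subunit of complex III, gave 550, 158, 675 and 188 CPM in the control libraries 4, 5(1), 5(2) and 6, 503, 262 and 419 in the SnCs, 661, 756 and 381 at 100 μg/mL, and 179, 533 and 478 at 300 μg/mL. The low and the high libraries were those of mt-Nd5, senescent mouse 6 aside. mt-Nd1, a complex I subunit, was at 466, 127, 525 and 134 CPM in the control libraries, 319, 164 and 287 in the SnCs, 408, 460 and 220 at 100 μg/mL, and 108.6, 315 and 282 at 300 μg/mL. Its neighbour mt-Nd2 was at 308, 85.0, 360 and 91.4 CPM in the controls, 248, 125 and 178 in the SnCs, 315, 366 and 172 at 100 μg/mL, and 81.0, 251 and 223 at 300 μg/mL. mt-Nd6, from the other strand, had the same order of control libraries, at 68.7, 16.3, 91.8 and 19.2 CPM, and was at 60.4, 28.0 and 75.7 in the SnCs, 85.0, 91.5 and 44.9 at 100 μg/mL, and 20.3, 62.5 and 57.8 at 300 μg/mL. In mt-Nd1, mt-Nd2, mt-Nd5, mt-Nd6 and mt-Cytb the range within the controls was wider than the distance between any of the group means. mt-Atp8, an ATP synthase subunit, had 2.16, 0.176, 2.54 and 0.422 CPM in the controls, 1.21, 0.430 and 1.12 in the SnCs, 2.06, 2.68 and 0.449 at 100 μg/mL, and 0.348, 1.45 and 1.78 at 300 μg/mL. Over the 6 genes, the level in library 5(2) was 4.13 to 14.5 times that in library 5(1), the largest ratio belonging to mt-Atp8 with its few counts.

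The shared genes did not follow this pattern. mt-Co3 was at 1543, 1864, 1617 and 2153 CPM in the control libraries 4, 5(1), 5(2) and 6, at 1609, 2098 and 1940 in the SnCs, at 1102, 1106 and 1870 at 100 μg/mL and at 1682, 1209 and 1600 at 300 μg/mL. Its lowest values were thus those of mice 4 and 5 at 100 μg/mL, where mt-Nd5 was near its highest. mt-Co2 was at 1254, 1566, 1296 and 2122 CPM in the controls, 1508, 2216 and 1930 in the SnCs, 1113, 1043 and 1845 at 100 μg/mL, and 1673, 1174 and 1590 at 300 μg/mL. mt-Atp6 was at 1278, 1503, 1293 and 1864 CPM in the controls, 1344, 1861 and 1401 in the SnCs, 1003, 975 and 1683 at 100 μg/mL, and 1552, 1054 and 1433 at 300 μg/mL. All 3 genes were thus higher in control library 5(1) than in 5(2), and lowest in mice 4 and 5 at 100 μg/mL. mt-Nd3, of complex I, was at 83.6, 89.1, 84.9 and 127 CPM in the controls, 73.1, 135 and 137 in the SnCs, 56.9, 54.7 and 83.6 at 100 μg/mL, and 77.9, 53.0 and 81.7 at 300 μg/mL. mt-Nd4l was at 31.5, 27.4, 46.7 and 65.3 CPM in the controls, 38.4, 58.1 and 6.95 in the SnCs, 34.0, 29.6 and 46.5 at 100 μg/mL, and 48.8, 31.4 and 41.3 at 300 μg/mL. The library of senescent mouse 6 was thus the highest of all in mt-Nd3 and the lowest of all in mt-Nd4l. Of the 2 part-shared genes, mt-Co1 was at 1774, 1188, 2128 and 1356 CPM in the controls, 1703, 1680 and 1982 in the SnCs, 1886, 2075 and 1781 at 100 μg/mL, and 1378, 1725 and 1839 at 300 μg/mL. mt-Nd4 was at 781, 726, 862 and 1174 CPM in the controls, 1069, 1253 and 499 in the SnCs, 997, 1028 and 1172 at 100 μg/mL, and 1060, 952 and 1108 at 300 μg/mL. Over the 5 shared genes the ratio of library 5(2) to 5(1) was 0.828 to 1.71, and over mt-Co1 and mt-Nd4 it was 1.79 and 1.19. The log2 ratio of the summed counts of the 6 own-sequence genes to those of the other 7 was lowest, −3.96, in the library of control mouse 6. It was highest, −1.44, in the cells of mouse 5 given 100 μg/mL.

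**Figure D2:**
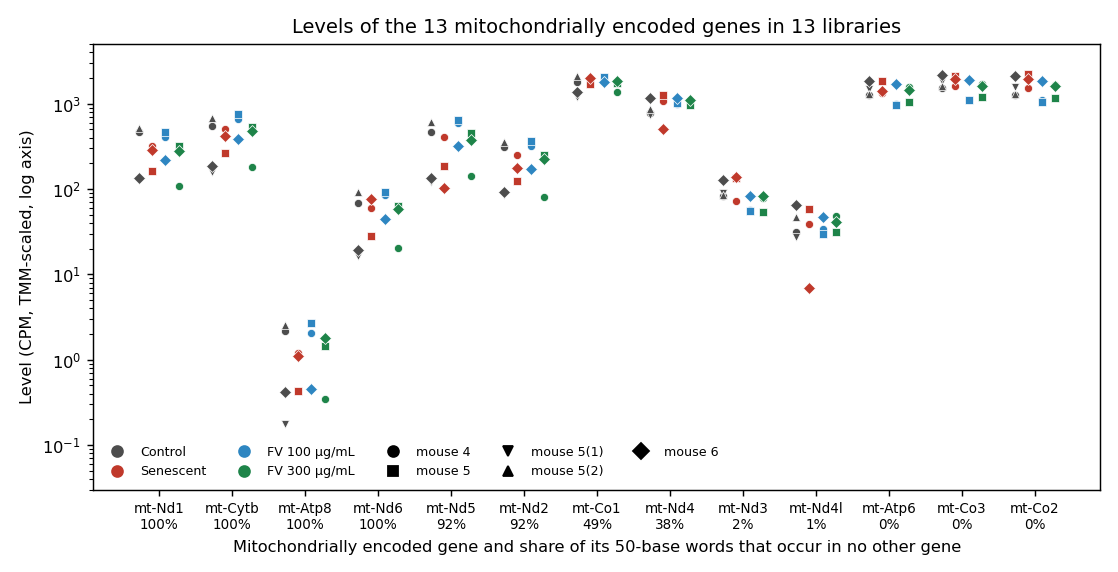
Levels (CPM, TMM-scaled, log axis) of the 13 mitochondrial genes in 13 libraries, in order of the share of 50-base words that occur in no other gene (given under each symbol), with colour for the group and marker for the mouse. Genes with over 90% own sequence spread at least 4.51-fold between libraries, and the low points of mt-Nd4l, mt-Nd4 and mt-Nd5 in the SnCs are all mouse 6.

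A similar library pattern appeared in nuclear genes with single-transcript sequence. Ndufa1, Ndufa2, Ndufa8, Ndufa13, Ndufb3, Sdhd and Uqcrfs1 have 1 annotated transcript each, and over 95% of their 50-base words occur in that transcript only. Just below that limit lay Ndufb9 (94.7%), Cox7a2 (92.8%) and Ndufb7 (90.3%). Uqcrfs1, the Rieske iron-sulfur subunit of complex III, was at 32.4, 6.82, 40.4 and 5.53 CPM in the control libraries 4, 5(1), 5(2) and 6. It was at 16.4, 7.01 and 30.1 CPM in the SnCs, at 23.8, 25.9 and 11.1 at 100 μg/mL, and at 4.37, 18.4 and 13.5 at 300 μg/mL, so that high and low libraries occurred in each group. Across these 7 genes, library 5(2) exceeded library 5(1) by 4.64 to 7.74 times. The remaining 36 nuclear genes had a median ratio of 1.17. Among them, Ndufb9 had a ratio of 5.32, Cox7a2 of 1.65 and Ndufb7 of 1.41, while Ndufb6, a complex I subunit with 2 transcripts and a share of 28.3%, stood apart at 7.14. The likeness between the genomes did not hold in senescent mouse 6, where the 7 nuclear genes deviated from their means by a median of 1.32 on the log2 scale and the 6 own-sequence mitochondrial genes by 0.065.

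The shift was not limited to the 56 genes. Over 965 other genes with more than 95% single-transcript sequence, the median deviation from each gene's mean was −1.10 in control library 5(1) and 0.85 in 5(2) on the log2 scale, −1.29 in control mouse 6, −0.87 in senescent mouse 5, 0.89 and 1.01 in mice 4 and 5 at 100 μg/mL, and −1.02 in mouse 4 at 300 μg/mL. The 6 own-sequence mitochondrial genes had medians of −1.24, 0.94, −1.06, −0.65, 0.74, 0.94 and −1.17 in these 7 libraries, and the 7 single-transcript nuclear genes −1.25, 1.32, −1.45, −1.01, 0.78, 0.99 and −1.45. Over 6834 other genes with less than 50% of such sequence, the medians stayed between −0.18 and 0.23. Each of the 4 groups held both negative and positive deviations, and the part of this shift in any single gene's value was not tested.

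**Figure D3:**
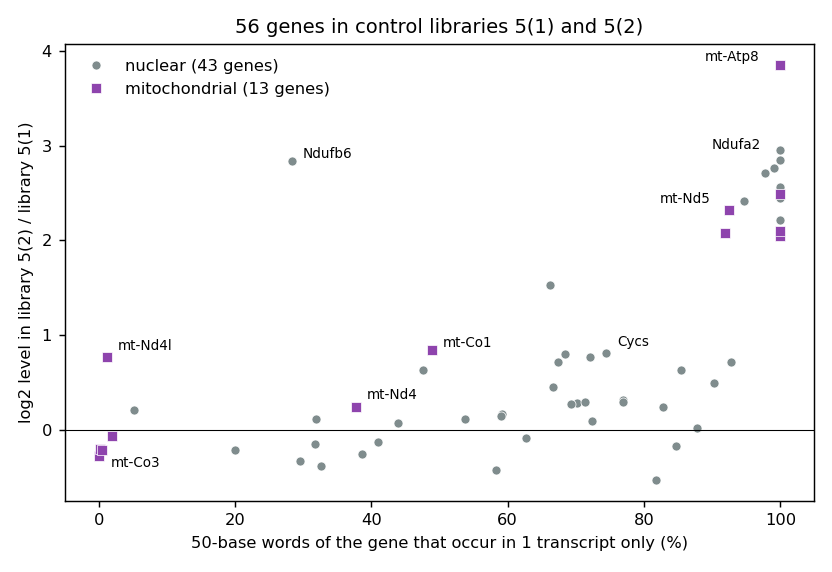
Log2 ratio of the level in control library 5(2) to that in library 5(1) for the 56 genes, against the share (%) of each gene's 50-base words that occur in 1 transcript only. The 6 own-sequence mitochondrial and 7 single-transcript nuclear genes lie above 2 on the log2 scale, as do Ndufb9 (2.41) and Ndufb6 (2.83, at a share of 28.3%), and mt-Co3 lies below 0.

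Senescent mouse 6 differed in another way, along the mitochondrial DNA itself. A run of 3 neighbouring genes had its lowest levels in this library: mt-Nd4l at 6.95 CPM against 27.4 to 65.3 in the other 12 libraries, mt-Nd4 at 499 against 726 to 1253, and mt-Nd5, by a narrow margin, at 102 against 121 to 647. They lie side by side on the plus strand of chrM, from base 9877 to base 13565, and all encode proton-pumping subunits of complex I. The gene before them, mt-Nd3, was at 137 CPM, above the 53.0 to 135 of the other libraries. Beyond them, mt-Nd6, which is read from the minus strand, was at 75.7 CPM and mt-Cytb at 419, both inside the range of the other libraries. Ratios of counts within the library, which library scaling does not touch, showed the same: mt-Nd5 to mt-Cytb was 0.244, against 0.715 to 0.900 elsewhere, and mt-Nd4l to mt-Nd3 was 0.0507, against 0.307 to 0.626. The ratio of mt-Nd6 to mt-Cytb, 0.181, lay above the 0.102 to 0.136 of the other libraries. Outside the run, mt-Nd2 to mt-Cytb was also lowest here, at 0.424 against 0.451 to 0.560. For mt-Nd1 to mt-Cytb the value of 0.685 lay inside the 0.578 to 0.848 of the others. The summed level of mt-Nd4l and its copy Gm10222 was also lowest there, at 13.4 CPM. The other 12 libraries, those of mouse 6 in the other groups included, lay outside these low values, and the cause was not tested.

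The library of senescent mouse 6 also stood apart by transcript length. Over 287 other genes with mean transcripts under 700 bases the median deviation there was 0.91, and over 2552 genes with transcripts over 3000 bases it was −0.58, whereas in the other 12 libraries these medians ran from −0.32 to 0.40 and from −0.16 to 0.27. The 43 nuclear respiratory genes, whose mean transcripts measured 436 to 2529 bases, had a median deviation of 0.97 in this library and −0.29 to 0.38 in the others. The main results against the SnCs are therefore given also without that mouse.

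**Figure D4:**
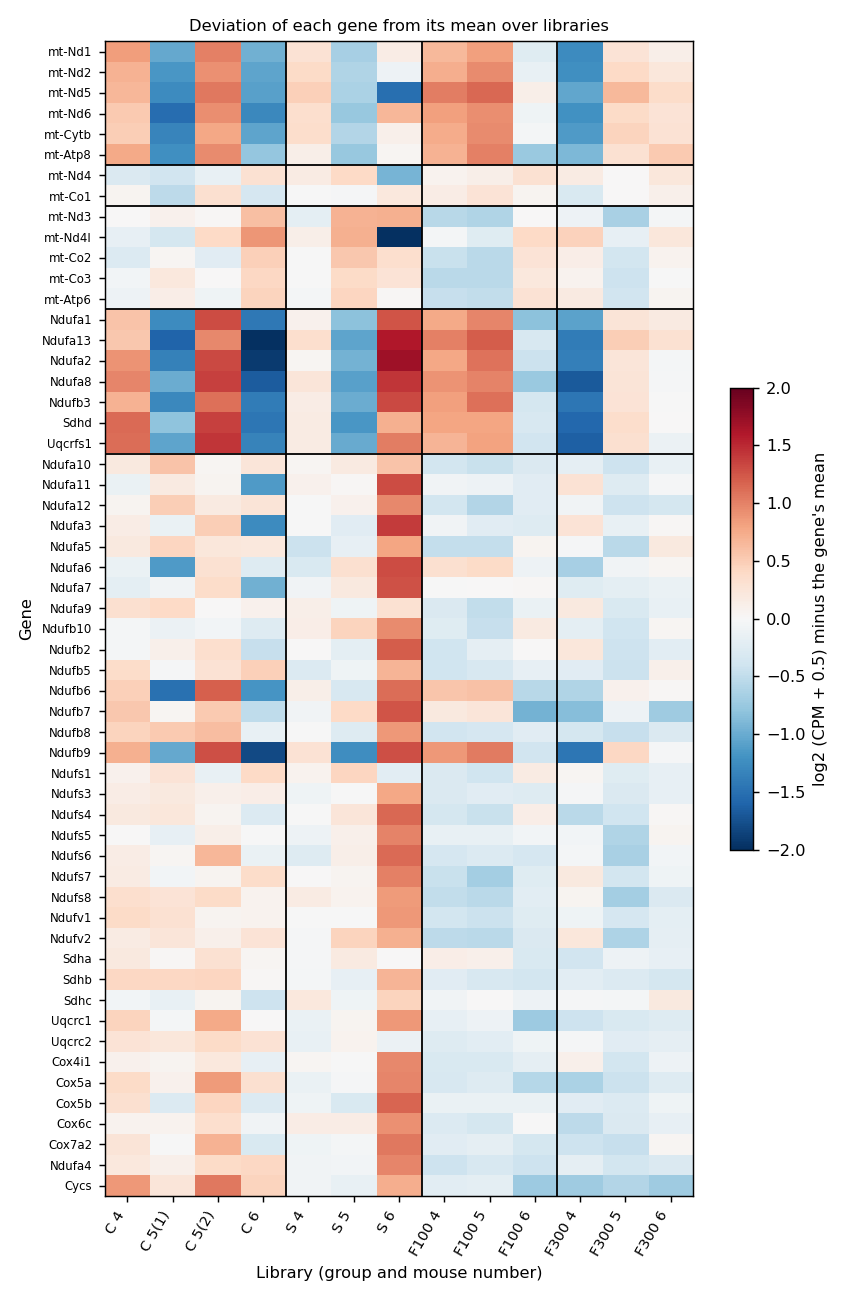
Deviation of each of the 56 genes from its mean over the 13 libraries, in log2 (CPM + 0.5), with colours limited to ±2. Lines divide, from the top, the 6 own-sequence, 2 part-shared and 5 shared mitochondrial genes, the 7 single-transcript nuclear genes and the other 36, and the columns are grouped as control (C), senescent (S) and Fucoidan-FV at 100 (F100) and 300 μg/mL (F300), so that senescent mouse 6 is the column high in nearly all nuclear genes.

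The first comparison asks how etoposide-induced senescence bears on respiratory gene expression. By edgeR's quasi-likelihood test, 0 of the 56 genes passed an adjusted p of 0.05, against 11.7% of all genes tested. At an unadjusted p under 0.05 there were 5 of 56, 4 higher and 1 lower, against 25.4% of all genes, and DESeq2 called 1 of 56 against 17.7%. The median log2 fold change was 0.03 for the 13 mitochondrial genes and 0.25 for the 43 nuclear genes, beside 0.07 for all genes. Of the nuclear genes 31 were above 0, and without senescent mouse 6 this turned to 12, with a median of −0.19. In that fit all genes tested had a median of 0.033, with 47.9% below 0. The mitochondrial median was 0.037 without that mouse.

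The gene nearest to the threshold was Ndufb10, an accessory subunit of complex I. Its level was 72.2, 71.3 and 61.9 CPM in control mice 4, 5 and 6 and 81.6, 101.4 and 144 CPM in the SnCs, so the groups did not overlap. The log2 fold change was 0.67 ± 0.23 (SE, edgeR adjusted p = 0.085, n = 3), and DESeq2 gave an adjusted p of 0.0418. The log2 fold change without senescent mouse 6 was 0.42 (edgeR adjusted p = 0.0972). The highest log2 fold changes were those of Ndufa11 (0.88 ± 0.37), Ndufa7 (0.85 ± 0.34) and Ndufa6 (0.85 ± 0.38), all complex I subunits, with edgeR adjusted p from 0.127 to 0.182, and without senescent mouse 6 they had 0.35, 0.34 and 0.28. Each of them was highest in that mouse, where Ndufa7 reached 109.1 CPM against 42.9 and 51.9 in mice 4 and 5.

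At the other end lay Cycs, Uqcrc2 and Sdhd. Cycs, which encodes the cytochrome c that carries electrons between complexes III and IV, was at 97.2, 86.1 and 71.9 CPM in the controls and at 50.6, 47.5 and 88.2 in the SnCs. Its log2 fold change was −0.45 ± 0.25 (edgeR adjusted p = 0.288), and without senescent mouse 6 it was −0.78 with an adjusted p of 0.0410. Uqcrc2, a core subunit of complex III, was lower in each of the 3 SnC mice than in any control, at 72.7, 85.1 and 74.7 against 97.9, 102 and 98.6 CPM, with a log2 fold change of −0.36 ± 0.15 (edgeR adjusted p = 0.159), and −0.33 without senescent mouse 6 (edgeR adjusted p = 0.0710). Sdhd, the membrane anchor of complex II and a single-transcript gene, had −0.35 ± 0.65 and changed sign under several alternatives.

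In the mitochondrial genome, no gene of the 13 came near the threshold between SnCs and controls, and the smallest edgeR adjusted p was 0.622, for mt-Co1, with a log2 fold change of 0.17 ± 0.18. mt-Co1, the catalytic subunit of cytochrome c oxidase, was at 1778, 1650 and 1360 CPM in the controls and 1708, 1685 and 1987 in the SnCs. The SE was 0.43 to 0.86 for the 6 own-sequence genes, which limits the size of a change that could be detected. mt-Nd5, with −0.44 ± 0.54, was lower in each SnC mouse than in the control of the same number, and the groups overlapped.

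The second comparison asks what 100 μg/mL Fucoidan-FV did to SnCs. Again 0 of the 56 genes passed an adjusted p of 0.05 in edgeR, against 4.02% of all genes, and DESeq2 called 2 of 56, both lower, against 10.1%. At an unadjusted p under 0.05, 21 of 56 were lower, against 12.7% of all genes, and 0 were higher. In 17 of 56 the treated mice all lay below the SnC mice, against 15.0% of all genes. The median log2 fold change of the nuclear genes was −0.58, with 36 of 43 below 0. That of the mitochondrial genes was 0.18, with 9 of 13 above 0. Of all genes tested, 51.1% were below 0, with a median of −0.019.

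The nuclear difference moved with senescent mouse 6, and other short genes showed one of the same size. Over the 287 other genes with transcripts under 700 bases the median log2 fold change was −0.65, 246 of them were below 0, and 96 were lower at an unadjusted p under 0.05. The nuclear respiratory genes had medians of −0.60 for the 11 with transcripts under 700 bases and −0.65 for the 25 with longer ones, single-transcript genes aside, beside −0.13 for 8760 other genes of 700 to 3000 bases. Without senescent mouse 6, the median of the 43 nuclear genes was −0.04, with 20 above 0 and 23 below, and 0 passed the adjusted threshold. All genes tested in that fit had a median of 0.14, with 40.4% below 0. With offsets for single-transcript share, length and GC content, the nuclear median was −0.34, with 36 of 43 below 0.

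The lowest adjusted p belonged to complex I. Ndufa10 was at 86.5, 95.4 and 125 CPM in the SnCs of mice 4, 5 and 6 and at 64.7, 61.6 and 68.9 after 100 μg/mL, a log2 fold change of −0.65 ± 0.18 (SE, edgeR adjusted p = 0.0573, DESeq2 adjusted p = 0.0270, n = 3). Ndufv2, which holds an iron-sulfur cluster of the NADH-oxidizing arm, was at 67.7, 93.98 and 114 against 47.8, 47.5 and 56.6 CPM (−0.86 ± 0.24, edgeR adjusted p = 0.0587, DESeq2 adjusted p = 0.0306). In both genes all treated mice lay below all SnC mice, those of mice 4 and 5 included, and without senescent mouse 6 their log2 fold changes were −0.34 and −0.53 (edgeR adjusted p = 0.194 and 0.213). The other low log2 fold changes, of Ndufs7 (−0.89 ± 0.28, edgeR adjusted p = 0.0871) and Ndufs8 (−0.82 ± 0.25, edgeR adjusted p = 0.0858), were also in complex I iron-sulfur subunits, and without senescent mouse 6 they were −0.34 and −0.40 (edgeR adjusted p = 0.374 and 0.325). At the upper end, Sdhd, Ndufb3 and Ndufb9 had 0.41 ± 0.65, 0.21 ± 0.72 and 0.20 ± 0.72, all with at least 94.7% single-transcript sequence and an SE larger than the difference.

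By complex, the nuclear medians at 100 μg/mL were −0.58 for the 29 genes of complex I, −0.17 for the 4 of complex II, −0.12 for the 3 of complex III and −0.67 for the 6 of complex IV. They were −0.031, 0.048, 0.00079 and −0.14 without senescent mouse 6, and with the offsets −0.32, −0.12, −0.40 and −0.53. Sdha, the flavoprotein of complex II, had a log2 fold change of −0.075 ± 0.17, at 106, 121 and 108 CPM in the SnCs and 117, 115 and 86.1 after treatment. Cox4i1 of complex IV was at 255.2, 246 and 486 CPM in the SnCs and at 201, 200 and 220 after treatment (−0.67 ± 0.24, edgeR adjusted p = 0.142), and without senescent mouse 6 its log2 fold change was −0.13 (edgeR adjusted p = 0.611).

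The mitochondrial genes split by their sequence class. The 6 own-sequence genes were all above 0 at 100 μg/mL, median 0.62 on the log2 scale, and 4 of the 5 shared genes were below 0, with a median of −0.47. These medians were 0.86 and −0.32 without senescent mouse 6, and that of all 13 was 0.33. With the offsets they were 0.25 and −0.036, and 2 of the 5 shared genes lay above 0, so that the split was narrower. mt-Nd5 was at 408, 188 and 103 CPM in the SnCs and 596, 649 and 316 after treatment, higher in each of the 3 mice, with a log2 fold change of 1.16 ± 0.55 (edgeR adjusted p = 0.260). Where no filter on low counts was set, edgeR gave it an adjusted p of 0.000974. Without senescent mouse 6 its log2 fold change was 0.97 (edgeR adjusted p = 0.470), and with the offsets it was 0.50 (edgeR adjusted p = 0.433). mt-Nd3 was lower in each mouse, at 73.3, 136 and 138 against 57.0, 54.9 and 83.8 CPM (−0.82 ± 0.28, edgeR adjusted p = 0.1203), on counts it shares with its copy Gm28438. Its log2 fold change was −0.54 without senescent mouse 6 (edgeR adjusted p = 0.364) and −0.21 with the offsets (edgeR adjusted p = 0.506). In both genes the groups overlapped.

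**Figure D5:**
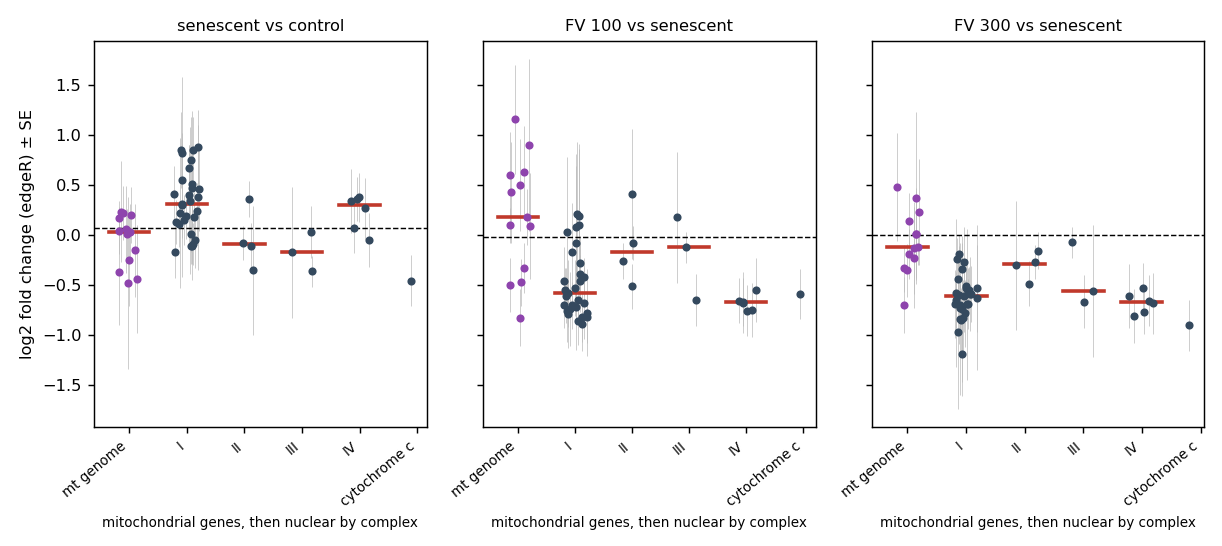
Log2 fold changes (edgeR, ± SE) of the 13 mitochondrial genes (purple) and of the nuclear genes by complex (dark) in 3 comparisons, with FV standing for Fucoidan-FV and its dose in μg/mL, red bars for medians and a dashed line for the median of all genes tested. The nuclear medians of complexes I and IV lie at −0.58 and −0.67 at 100 μg/mL and at −0.61 and −0.67 at 300 μg/mL, and the comparisons with SnCs share the same 3 SnC samples.

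At 300 μg/mL the outcome was alike in form. In edgeR 0 of the 56 genes passed an adjusted p of 0.05, against 1.90% of all genes, and DESeq2 called 2 of 56, both lower, against 6.38%. At an unadjusted p under 0.05, 20 of 56 were lower, against 8.97% of all genes, and in 15 of 56 all treated mice lay below all SnC mice, against 10.2%. All 43 nuclear genes had a log2 fold change below 0, with a median of −0.61. The 287 other short genes had a median of −0.59, with 253 below 0. Single-transcript genes aside, the 25 nuclear genes with transcripts of 700 bases or more also had a median of −0.59. The 8760 other genes of 700 to 3000 bases had a median of −0.055, with 55.3% below 0. Of all genes tested, 49.9% were below 0. Without senescent mouse 6 the nuclear median was −0.12 and 14 of the 43 were above 0, the 7 single-transcript genes among them. The median of all genes in that fit was 0.079, with 42.9% below 0. With the offsets the nuclear median was −0.27, with 38 of 43 below 0. The 13 mitochondrial genes had a median of −0.12, with 6 above 0, and of 0.014 without senescent mouse 6 and 0.18 with the offsets.

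Cycs had the lowest adjusted p at this dose. It was at 50.6, 47.5 and 88.2 CPM in the SnCs and at 32.2, 35.3 and 32.1 after 300 μg/mL, so that all treated mice lay below all SnC mice, with a log2 fold change of −0.90 ± 0.25 (SE, edgeR adjusted p = 0.0923, DESeq2 adjusted p = 0.0283, n = 3). Without senescent mouse 6 it was −0.51 (edgeR adjusted p = 0.368). Of the 50-base words of Cycs, 74.4% were its own, and most of the rest occur in Gm10053 on chromosome 19, so its count is uncertain to that extent. Cox6c, a small subunit of cytochrome c oxidase, was at 90.5, 90.4 and 154 against 56.8, 67.1 and 73.3 CPM (−0.76 ± 0.22, edgeR adjusted p = 0.106, DESeq2 adjusted p = 0.0362), and −0.41 without senescent mouse 6 (edgeR adjusted p = 0.234). Further below 0 were Ndufb7 (−1.18 ± 0.43, edgeR adjusted p = 0.190) and the single-transcript gene Ndufa2 (−0.96 ± 0.78, edgeR adjusted p = 0.630). Nearest to 0 were Uqcrc2 (−0.073 ± 0.15), Sdhc (−0.15 ± 0.18) and Ndufa9 (−0.19 ± 0.19).

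Since Cycs is a textbook target of nuclear respiratory factor 1 (NRF-1), the promoters were searched for an NRF-1 motif. RefSeq promoters of GRCm38.p6, 250 bases before to 50 after each start, were at hand for 36 of the 43 nuclear genes. The letters GCGCATGCG, on either strand, were found in 4 of 38 promoters of these genes (10.5%), those of Cycs, Ndufa8, Ndufa11 and Uqcrc1, and in 1.75% of all 32851 promoters. The ETS-type motif CCGGAAG was found in 6 of the 38 (15.8%) and in 8.86% of all. A match is a description of letters and no sign of binding. The window of Cycs that ends at the transcript start is printed with the motif, on the opposite strand at bases 61 to 53 before the start, in capitals.
Cycs promoter, GRCm38.p6 chr6:50566570-50566689, minus strand: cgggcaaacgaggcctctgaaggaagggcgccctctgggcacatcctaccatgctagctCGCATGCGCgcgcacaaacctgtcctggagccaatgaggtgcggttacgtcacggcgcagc

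The doses were then compared with each other. Between 300 and 100 μg/mL, 0 of 56 genes passed the adjusted threshold in edgeR, against 0.00665% of all genes (1 gene), and 0 passed in DESeq2, against 0.00666%. At an unadjusted p under 0.05 there were also 0, against 0.625% of all genes. The medians were −0.02 for the nuclear and −0.22 for the mitochondrial genes. The largest differences lay in single-transcript genes with a large SE, with Ndufb3 at −0.95 ± 0.73, Ndufa2 at −0.89 ± 0.77 and Ndufa8 at −0.87 ± 0.76. On the positive side were Ndufs7 (0.38 ± 0.27), Ndufv2 (0.30 ± 0.24) and Ndufa3 (0.25 ± 0.43), and the edgeR adjusted p was 0.970 for all 6.

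Lists of genes around these 56 were examined too. Between SnCs and controls, edgeR called 10 of 167 genes in 7 lists of mitochondrial function, 2 higher and 8 lower. That is a smaller share than the 11.7% of all genes. DESeq2 called 15 of the 167, also a smaller share than its 17.7% of all genes. Of 22 membrane and matrix genes, 3 fell: Slc25a5, which encodes an ADP/ATP carrier of the inner membrane, from 333, 311 and 271 CPM in control mice 4, 5 and 6 to 125, 144 and 163 in the SnCs (log2 fold change −1.08 ± 0.16, edgeR adjusted p = 0.000921), the import subunit Timm23 (−0.78 ± 0.22, edgeR adjusted p = 0.0324) and the chaperonin Hspd1 (−0.94 ± 0.27, edgeR adjusted p = 0.0390). Of the 19 alternatives, all called Slc25a5, 14 called Timm23 and 7 called Hspd1. Hspd1 was among others not called without senescent mouse 6, with fewer samples and a log2 fold change of −1.06 (edgeR adjusted p = 0.0578). Of 32 genes for mitochondrial DNA and RNA upkeep, 3 fell: Tbrg4, which acts in mitochondrial RNA processing (−1.28 ± 0.20, edgeR adjusted p = 0.00106), the DNA polymerase gene Polg (−0.71 ± 0.18, edgeR adjusted p = 0.0219) and Fastkd3 (−1.09 ± 0.28, edgeR adjusted p = 0.0239). Tbrg4 was called under all 19 alternatives, Polg under 18 and Fastkd3 under 14.

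Further single calls came from the smaller lists. Pprc1, a PGC-1-related coactivator, was 1 of 9 biogenesis regulators and fell from 153, 163 and 160 to 93.0, 84.4 and 83.4 CPM (−0.87 ± 0.17, edgeR adjusted p = 0.00424). Gfm1, an elongation factor, was 1 of 11 translation factors and fell by 0.79 on the log2 scale (edgeR adjusted p = 0.0404), with a call under 12 of 19 alternatives. Surf1, an assembly factor of cytochrome c oxidase, was 1 of 49 assembly factors and rose, from 17.2, 21.6 and 20.5 to 32.8, 33.4 and 50.5 CPM (0.97 ± 0.27, edgeR adjusted p = 0.0316). Among 42 other subunits of the chain and of ATP synthase, only Cox6b2, known as the testis form of an oxidase subunit, was called in edgeR, rising from 0.425, 2.20 and 0 to 11.2, 13.2 and 20.3 CPM. Of the 2 mitochondrial ribosomal RNAs, 0 were called in edgeR or DESeq2 and 0 had an unadjusted p under 0.05.

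After 100 μg/mL, 9 of these 167 genes were lower than in the SnCs and 0 were higher in edgeR, beside 4.02% of all genes, while DESeq2 called 13, beside 10.1%. Membrane and matrix genes made up 5 of the 9: Slc25a5 fell further, to 82.8, 74.9 and 68.0 CPM (−0.94 ± 0.16, edgeR adjusted p = 0.00852), and Idh3a, Vdac2, Mdh2 and Tomm40 fell by 0.80 to 0.93 on the log2 scale. The ATP synthase genes Atp5mc3, Atp5pb and Atp5f1c and the elongation factor Tufm made up the rest, with −0.91, −0.72, −0.76 and −0.76. When senescent mouse 6 was left out, Slc25a5 kept its call (edgeR adjusted p = 0.0434), and the other 8 had log2 fold changes of −0.78 to −0.39 and edgeR adjusted p from 0.0541 to 0.1204. Slc25a5 was called under 17 of 19 alternatives, and the other 8 under 5 (Tufm) to 13 (Vdac2). In the 4 lists without a call, with 92 genes, 11 had an unadjusted p under 0.05, beside 19.8% of all genes, and DESeq2 called 0. Of the 42 other subunits of the chain and of ATP synthase, 17 had an unadjusted p under 0.05. Their median log2 fold change was −0.62, with 36 below 0, in the fit that includes senescent mouse 6.

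After 300 μg/mL only Slc25a5 was called among the 167 genes in edgeR, beside 1.90% of all genes, at 83.6, 76.7 and 75.9 CPM (−0.87 ± 0.16, edgeR adjusted p = 0.0162), and it kept the call without senescent mouse 6 (edgeR adjusted p = 0.0397). In the 6 lists without a call, 27 of 145 genes had an unadjusted p under 0.05, beside 15.3% of all genes, and DESeq2 called 3, beside 6.38%. Between the doses, 0 of the 167 were called in edgeR or DESeq2, and 0 had an unadjusted p under 0.05. The comparisons with SnCs share the SnC samples, so these values stand side by side and are not independent of each other.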

How the data were processed

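Total RNA of 13 libraries (4 groups, 3 mice each, control mouse 5 as libraries 5(1) and 5(2)) had been made into stranded paired-end libraries. The authors checked reads with FastQC (0.12.1), trimmed them with Trimmomatic, aligned them to GRCm39 with STAR (2.7.11b) and deposited expected counts per gene from RSEM (1.3.1), which shares out a read that fits several transcripts. The deposited TPM values are RSEM's, scaled for transcript length and library. The strand setting is not given in the sources used here.

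Groups came from the sample labels. The 2 libraries of control mouse 5 were summed, which the labels support only by the shared mouse name. Expected counts were rounded, filtered with filterByExpr in edgeR (4.0.16, minimum count of 10, 15034 genes kept), scaled by TMM and fitted in 1 quasi-likelihood model of 4 groups in R 4.3.3, with p-values adjusted by Benjamini-Hochberg over all genes tested. DESeq2 (1.42.0) served as an alternative, and its percentages are over genes with an adjusted p. The edgeR fit was also run on simulated counts with the same dispersion for every gene and no shift between libraries. That setting is simpler than these data, so it does not bear on the library shifts described above. With 3 mice against 3, no single exact permutation test can go below 0.1, so none was used.

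The 50-base words of 148458 annotated transcripts were searched for words that occur in 1 gene or 1 transcript only. The 56 genes and the other lists were chosen with earlier results of these data known, as was the look at single-transcript sequence. The text names all 13 mitochondrial genes with their values, the 3 largest increases and decreases of nuclear genes in each comparison, and genes of the other lists past the threshold. The genes chosen after their values were seen are Ndufb10, Ndufa10, Cox6c, Sdha, Cox4i1, Ndufb6, Uqcrfs1, Tomm40 and those called under an alternative only. Promoter sequences came from RefSeq for GRCm38.p6 and carry that build, and 7 nuclear genes had no entry.

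Same-numbered samples came from the same mouse by the labels, so a fit with the mouse as a block was also made. Deviations of same-numbered samples correlated with a median r of −0.04 over 18 pairs of groups (−0.33 to 0.60), and 8 of the 18 exceeded 0.1. Other alternatives were RLE factors, 2 other filters, only the groups compared, each library of control mouse 5 alone or apart, leaving out each mouse, offsets per gene and library from single-transcript share, length and GC content, mitochondrial genes left out of the library sizes, and, added after the data were seen, counts summed with the chromosome 1 copies. Deposited FPKM values were not used.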

Additional observations from a re-analysis of the deposited data

How the results depend on the processing

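Among the 56 genes, the count called between SnCs and controls was 0 in the report's fit, and 1 with DESeq2, with mitochondrial genes out of the library sizes and with counts summed with the chromosome 1 copies (Ndufb10 each time). It was 1 with the offsets for single-transcript share, length and GC content (Ndufa7), and 2 with these offsets and the replicate block (Ndufa7, Cox6c). At 100 μg/mL against SnCs it was 2 with DESeq2, 1 without the filter (mt-Nd5), 3 with the offsets (Cox5a, Ndufb7, Ndufv2), and 6 with the offsets and the block (Cox5a, Cox6c, Cox7a2, Ndufb7, Ndufs4, Ndufv2). At 300 μg/mL it was 2 with DESeq2, 1 without the filter (Cycs), 2 with the offsets (Cycs, Ndufb7), and 1 with the offsets and the block (Cox6c). Leaving out 1 mouse gave 0 to 1 in the first and in the second comparison: Ndufb10 without senescent mouse 4 and Cycs without senescent mouse 6 in the first, and Ndufv2 without senescent mouse 4 in the second. The block alone, with the mouse numbers pairing the samples, gave 0 in all 4 comparisons and changed no call among the 56 genes. The other alternatives gave 0, and between the doses all did. The cause of these differences was not tested.

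As a share of TPM, which weighs short transcripts more, in place of counts, the mitochondrial genes held 2.25%, 2.42%, 2.94% and 2.63% in controls, SnCs, 100 and 300 μg/mL. The log2 ratio of mitochondrial to nuclear sums was 2.67, 2.45, 3.01 and 2.89 in these groups as a mean of log2 (CPM + 1). Against a few nuclear genes with a single-transcript share as high as that of the own-sequence mitochondrial genes, it was 6.58, 6.36, 6.33 and 6.78. That ratio counted all mitochondrial genes, so the shared and part-shared ones were not matched. With the own-sequence mitochondrial genes alone, the group mean was highest at 100 μg/mL, where that of all mitochondrial genes was lowest. From summed TPM, the log2 ratio of all mitochondrial to all nuclear genes was 1.88, 1.70, 2.06 and 2.02.

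Of 627 values for 33 named gene results, 18 changed direction. Sdhd between SnCs and controls was 0.032 with library 5(1) alone and −0.79 to 0.19 when 1 mouse was left out, and mt-Nd3 there was −0.10 with the offsets and −0.11 with the offsets and the block. At 100 μg/mL Ndufb3 was −0.46 and −0.40 under these, and −0.11 to 1.22 without 1 mouse, and Ndufb9 was −0.46 and −0.43, and −0.069 to 1.13. At 300 μg/mL Uqcrc2 was 0.13 and 0.13, and −0.14 to 0.041 without 1 mouse. Ndufa2 was −1.31 to 0.19, its highest value being that without senescent mouse 6, and Sdhc was −0.23 to 0.028, highest likewise without that mouse.

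Depth limits mt-Atp8, Ndufa1 and Ndufb3, whose library counts ran from 5 to 71, 24 to 293 and 32 to 372. With 3 mice a group, a gene that did not pass the threshold is not shown to be equal between groups.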

Other observations

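Among the 10 fibroblast markers, which were used to check the label, some moved with the groups. Dcn, which encodes the matrix proteoglycan decorin, rose from 1.57, 0.726 and 0.893 CPM in control mice 4, 5 and 6 to 13.1, 22.9 and 12.7 in the SnCs (log2 fold change 3.96 ± 0.67, edgeR adjusted p = 0.00215), and Col1a2 fell by 0.65 (edgeR adjusted p = 0.0338). Col3a1, a fibrillar collagen gene, rose from 861, 838 and 919 CPM in the SnCs to 1994, 2040 and 2777 at 100 μg/mL (1.38 ± 0.28, edgeR adjusted p = 0.0164), and kept its call without senescent mouse 6 (edgeR adjusted p = 0.0297). At 300 μg/mL it was at 1416, 1820 and 2651 CPM (1.17 ± 0.28, edgeR adjusted p = 0.0489), and without that mouse it had 1.26 (edgeR adjusted p = 0.0754). Vim fell by 0.87 at 100 μg/mL, and Dcn rose by 2.33. Without senescent mouse 6 they had −0.59 and 2.26, and neither was called (edgeR adjusted p = 0.0938 and 0.132).

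The summed level of the 2 mitochondrial ribosomal RNAs ran from 16.9 to 131.2 CPM over the 13 libraries, with ranges of 16.9 to 118 in controls, 37.1 to 99.1 in SnCs, 46.9 to 131.2 at 100 μg/mL and 22.3 to 77.3 at 300 μg/mL.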
